A study of Mus musculus with 7 samples.

Results

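The 10 genes described here carry salt and water across the colonocyte, and the rule names them by symbol for their roles, without a measured value. They were chosen, however, with earlier results of these data known. *Slc26a3*, *Slc9a3*, *Car1*, *Car4*, *Aqp8*, *Scnn1a*, *Scnn1b* and *Scnn1g* form an absorptive set of 8, and *Cftr* and *Slc12a2* a secretory set of 2. Each symbol matched 1 of the 43346 genes in the count table. RNA came from 7 whole colon tumors, 3 from mice with Dnmt3a(+/+) bone marrow (BM) and 4 from mice with Dnmt3a(+/-) BM, and the comparison asks how tumor transcripts differ when the blood system has lost 1 copy of *Dnmt3a*. Recipients were lethally irradiated wild-type mice, by the labels C57BL6/J and 8 weeks old and by the study's methods congenic for the CD45.1 marker and younger, and their own colon cells kept both *Dnmt3a* copies. Donors of both groups carried the interferon-inducible Mx1-Cre and received poly(I:C), so the controls share that treatment. Tumors were induced in all mice with 1 dose of azoxymethane (AOM; 10 mg/kg), a carcinogen, and 3 rounds of 3% dextran sulfate sodium (DSS) in the drinking water, which injures the colon lining. They came from 2 transplant experiments, labelled BMT18 (replicates 1 and 2 of each group) and BMT8 (Dnmt3a(+/+) replicate 3 and Dnmt3a(+/-) replicates 3 and 4). The labels give no sex for the recipients and do not say from where along the colon a tumor was taken.

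In the healthy colon, surface cells absorb sodium chloride through paired exchangers: *Slc9a3* brings in sodium for protons and *Slc26a3* brings in chloride for bicarbonate, while carbonic anhydrases supply the protons and bicarbonate that are exchanged. In the distal colon, the epithelial sodium channel (ENaC), built from the products of *Scnn1a*, *Scnn1b* and *Scnn1g*, takes up the remaining sodium under the control of aldosterone. Secretion runs the other way and is seated in the crypts: *Slc12a2* loads chloride into the cell across the basolateral membrane, *Cftr* releases it into the lumen, and water follows.

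No member was called between the groups, as were 0 of the 15810 genes tested in edgeR. The levels of the groups overlapped for all 10 members, while 12.4% of all genes had groups without overlap. Of the 8 absorptive genes, 6 had a log2 fold change below 0 with Dnmt3a(+/-) BM, with a median of -0.79 over the set. *Slc9a3* stood on the other side with 3.02, and of the secretory pair *Cftr* had -0.95 and *Slc12a2* 0.01. The median over all 15810 genes tested was 0.003. *Slc26a3*, *Car4*, *Aqp8* and *Scnn1b* were lower with Dnmt3a(+/-) BM in BMT18 and higher in BMT8, without overlap in either, as were 5.52% of all genes. BMT8 has 1 control.

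The promoters of *Slc26a3* and of *Car4* and *Aqp8*, the members whose levels across tumors were most like it, are shown with that of *Slc9a3*, its partner in salt uptake, whose levels were less like it. Each is the 250 bases before the RefSeq start on GRCm38.p6, plus strand, 5′ to 3′, and capitals mark a TATAAA sequence. The *Slc26a3* window lies inside the span of its GENCODE gene, which begins further upstream. RefSeq promoters were at hand for 7 of the 10 members, the others being *Car1*, *Scnn1a* and *Slc12a2*.
*Slc26a3*, chr12:31437969-31438218: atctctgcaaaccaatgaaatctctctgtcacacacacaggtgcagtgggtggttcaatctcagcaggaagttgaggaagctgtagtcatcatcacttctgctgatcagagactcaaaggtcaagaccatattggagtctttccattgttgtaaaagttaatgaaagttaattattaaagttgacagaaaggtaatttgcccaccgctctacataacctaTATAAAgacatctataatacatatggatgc
*Car4*, chr11:84957504-84957753: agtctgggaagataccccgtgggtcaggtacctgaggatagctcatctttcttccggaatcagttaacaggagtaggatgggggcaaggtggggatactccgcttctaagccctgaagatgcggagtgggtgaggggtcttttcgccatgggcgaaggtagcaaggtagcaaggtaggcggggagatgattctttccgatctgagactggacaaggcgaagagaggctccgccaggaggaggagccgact
*Aqp8*, chr7:123462044-123462293: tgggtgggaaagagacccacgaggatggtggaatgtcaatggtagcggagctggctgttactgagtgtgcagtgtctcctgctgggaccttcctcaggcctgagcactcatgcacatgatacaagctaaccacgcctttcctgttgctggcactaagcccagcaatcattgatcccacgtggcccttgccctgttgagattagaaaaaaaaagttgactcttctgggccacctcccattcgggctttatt
*Slc9a3*, chr13:74121163-74121412: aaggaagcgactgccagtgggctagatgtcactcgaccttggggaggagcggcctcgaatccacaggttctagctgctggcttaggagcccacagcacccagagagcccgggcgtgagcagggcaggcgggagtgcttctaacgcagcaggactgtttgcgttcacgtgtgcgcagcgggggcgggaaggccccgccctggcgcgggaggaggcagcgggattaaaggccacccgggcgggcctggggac
Of these promoters, that of *Slc26a3* holds TATAAA, 30 bases before the start. At any position and on either strand, TATAAA was in 12.4% of the 32851 promoters of the same length. Among the 7 member promoters, that of *Slc26a3* was the only one with that sequence. The other sequences searched, on both strands, were the Cdx core TTTATNG (9.81% of all promoters), the TCF/LEF core CTTTGAT (3.21%), the Hnf4 core CAAAGTC (3.84%) and the steroid receptor palindrome, which is GNACA and its reverse complement 3 bases apart (0.387%), and 0 of the 7 member promoters held any of them. Only these exact letters were matched, with N as any base, so other forms of these sites may be present. The promoters also differed in base composition. GC content was 38.8% for *Slc26a3*, 52.4% for *Aqp8*, 56.4% for *Car4* and 67.6% for *Slc9a3*, against a median of 52.4% over all promoters. It was 60.8% for *Scnn1b*, 65.2% for *Scnn1g* and 76.4% for *Cftr*.

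Total counts ranged from 38472738 to 64314999 per tumor. Epithelial genes (11 markers such as *Epcam* and *Krt8*) were abundant in every tumor, with a summed level of 10480 to 34140 CPM (counts per 1000000 of a library size scaled by TMM). The level of *Dnmt3a* was 24.3, 23.1 and 20.3 CPM in Dnmt3a(+/+) replicates 1 to 3 and 27.7, 43.0, 28.3 and 22.0 CPM in Dnmt3a(+/-) replicates 1 to 4, which in whole tumors does not check a deletion held by the graft. Both groups hold a tumor that stood apart. Dnmt3a(+/-) replicate 2 lay at one end of the first principal component (42.9% of the variance). Its summed fibroblast level was 1017 CPM against 226 to 358 in the rest of its group. It had 0.02, 0.00 and 0.08 CPM of the distal colon genes *Hoxd11*, *Hoxd12* and *Hoxd13*. Not all distal genes were near 0 in it. *Hoxb13* was at 240.2 CPM, within the 163.2 to 276.9 CPM of the rest of its group. *Hoxa13* was at 15.02 CPM, below the 30.02 to 50.2 CPM of the rest. Dnmt3a(+/+) replicate 3 had a summed smooth muscle level of 8.35 CPM, where the other 2 controls had 712 and 809.

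Levels can be set side by side between genes only per length, here as CPM per kilobase of all exons of a gene, as the median over the 7 tumors. *Car1* was highest at 195, followed by *Slc12a2* at 23.6, *Car4* at 20.6, *Scnn1a* at 20.1 and *Aqp8* at 13.1. *Slc26a3* stood at 6.14. *Scnn1b* at 3.03, *Cftr* at 2.90, *Scnn1g* at 2.05 and *Slc9a3* at 0.96 made up the low end. The absorptive and secretory sets were thus interleaved. *Car1* lay above every other member in each tumor on this scale, whereas the ranges of *Slc12a2* (18.6 to 30), *Car4* (1.79 to 83.5), *Scnn1a* (7.08 to 28.6) and *Aqp8* (2.24 to 58.1) overlapped, and so did those of *Scnn1b*, *Cftr* and *Scnn1g*. The ENaC subunits, which join in 1 channel, were far apart, with *Scnn1a* above *Scnn1b* and *Scnn1g* in all tumors. On the length of the longest transcript, *Slc12a2* had a median of 39.5 and the order of the first 6 genes by median stayed. On that length, however, *Car4* (44.1) was above *Car1* (43.3) in Dnmt3a(+/-) replicate 2.

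**Figure D1:**
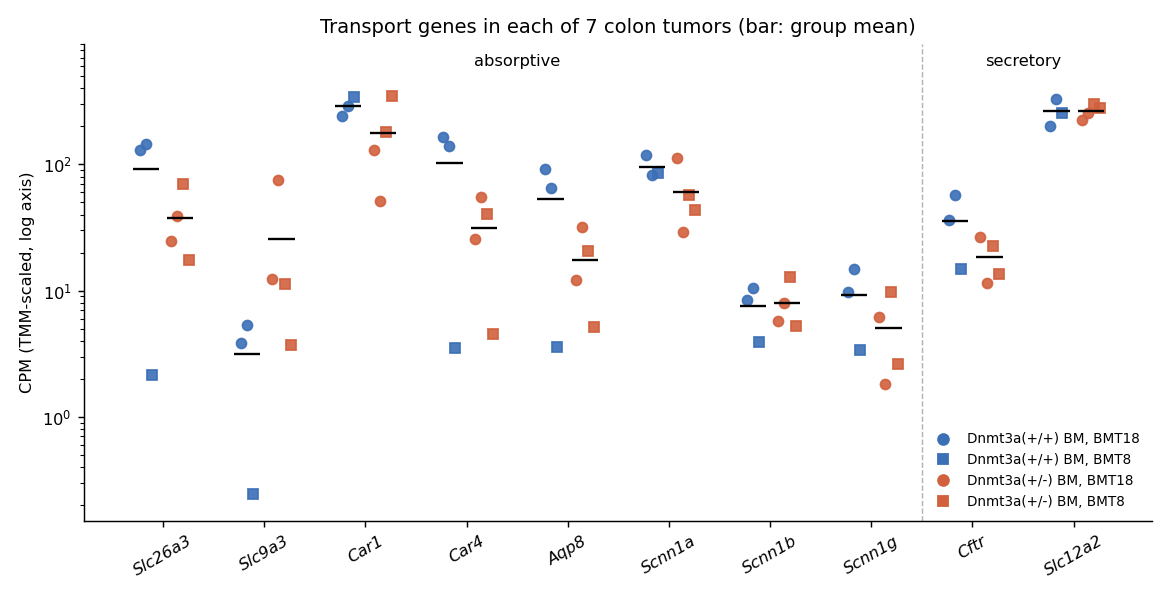
Level of each of the 10 transport genes in every tumor, in CPM on TMM-scaled library sizes (log axis), with Dnmt3a(+/+) BM in blue and Dnmt3a(+/-) BM in orange, BMT18 as circles and BMT8 as squares; black bars are group means. The groups overlap for all 10 genes, and the blue square, Dnmt3a(+/+) replicate 3, is the lowest point for 5 absorptive genes, down to 0.245 CPM for *Slc9a3*.

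*Slc26a3* (chr12:31390871-31473917, plus strand, in GENCODE on GRCm38) encodes the apical chloride and bicarbonate exchanger that is lost in congenital chloride diarrhea. It was at 129, 145 and 2.14 CPM in Dnmt3a(+/+) replicates 1 to 3 and at 24.9, 39.1, 69.6 and 17.4 CPM in Dnmt3a(+/-) replicates 1 to 4. The 2 highest tumors and the lowest one were thus all controls, and the Dnmt3a(+/-) tumors lay between them. The group means were 92.2 ± 78.4 CPM (SD, n = 3) and 37.8 ± 23.1 CPM (SD, n = 4). The log2 fold change was -1.29 (standard error, SE, 1.04; 95% interval -3.71 to 1.13, adjusted p = 0.675 by the quasi-likelihood test of edgeR, Benjamini-Hochberg corrected over all genes). On mean log2 CPM, where the low control weighs more, the groups differed by -0.06 (two-sided exact permutation p = 0.971; the smallest p this design can give is 0.0571). Without that control the log2 fold change was -1.85 (unadjusted p = 0.00986, adjusted p = 0.366, edgeR), and without Dnmt3a(+/+) replicate 2 it was -0.80.

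*Car4* (chr11:84957786-84966044, plus strand) encodes a carbonic anhydrase anchored to the apical membrane, where it handles bicarbonate. Its levels were 164, 140 and 3.52 CPM in the controls and 25.6, 55.4, 40.4 and 4.52 CPM with Dnmt3a(+/-) BM. As for *Slc26a3*, both BMT18 controls were above all other tumors and the BMT8 control was below them. The log2 fold change was -1.70 (SE 1.11, adjusted p = 0.597, edgeR), with -2.26 without Dnmt3a(+/+) replicate 3 and -1.20 without replicate 1.

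*Aqp8* (chr7:123462291-123468004, plus strand) encodes a water channel of the surface colonocyte. It measured 91.9, 65.3 and 3.55 CPM in the controls and 12.1, 31.8, 20.7 and 5.11 CPM in the Dnmt3a(+/-) tumors. The pattern was again 2 high controls, 1 control at the bottom and the Dnmt3a(+/-) tumors between, with replicate 4 of that group close to the low control. edgeR gave a log2 fold change of -1.62 (SE 0.94, adjusted p = 0.554), with -2.16 without the low control and -0.99 without Dnmt3a(+/+) replicate 1. Across the 7 tumors, the log2 levels of *Slc26a3* and *Aqp8* had a Pearson r of 0.908 (exact permutation p = 0.00238, adjusted p = 0.0143 over 6 member pairs) and a Spearman rho of 0.929 (exact permutation p = 0.00675, adjusted p = 0.0405). Leaving out Dnmt3a(+/+) replicates 2 and 3, the tumors farthest from the median of *Slc26a3*, gave r = 0.914. BMT18 and BMT8, with 4 and 3 tumors, are too small for a value within either, here and for the other pairs.

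*Slc9a3* (chr13:74121457-74169442, plus strand) encodes NHE3, the exchanger that pairs with that of *Slc26a3* in neutral salt uptake, and it had the largest fold change of the members. Its levels were 3.84, 5.29 and 0.245 CPM in the controls and 12.4, 74.7, 11.4 and 3.68 CPM with Dnmt3a(+/-) BM. In Dnmt3a(+/-) replicates 1 to 3 it was above every control, with replicate 2 far above the others, while replicate 4 was below 2 controls. The lowest level rests on 8 counts and the highest on 3669. edgeR gave a log2 fold change of 3.02 (SE 1.27, 95% interval 0.08 to 5.97, unadjusted p = 0.0456, adjusted p = 0.444), and DESeq2 gave 3.04 (adjusted p = 0.215). The exact permutation p was 0.171. Without Dnmt3a(+/-) replicate 2, the tumor with *Hoxd11*, *Hoxd12* and *Hoxd13* near 0, the log2 fold change was 1.58 (edgeR's adjusted p = 0.819); the part of that tumor's other differences in this value was not tested. Higher levels with Dnmt3a(+/-) BM were seen in both experiments, by 2.75 on the log2 CPM scale in BMT18 and 4.49 in BMT8. In each experiment both Dnmt3a(+/-) tumors were above its controls, as were 23.5% of all genes in BMT18 and 36.5% in BMT8. The share of genes higher in both was not counted. BMT8 has 1 control, the tumor with 8 counts. With the experiment as a covariate the log2 fold change was 3.74 (unadjusted p = 0.00326, adjusted p = 0.261, edgeR), where 7.41% of all genes were higher at an unadjusted p under 0.05. *Slc26a3* and *Slc9a3*, the exchanger partners, had r = 0.583 and rho = 0.357 over the 7 tumors (exact permutation p = 0.186 and 0.444, adjusted p = 0.372 and 0.666), and r was -0.10 without Dnmt3a(+/+) replicates 2 and 3.

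*Car1* (chr3:14766216-14808368, minus strand) encodes the cytosolic carbonic anhydrase of colonocytes and is also a gene of red blood cells. It was measured at 243, 289 and 341 CPM in the controls and 131, 51.7, 181 and 350 CPM with Dnmt3a(+/-) BM. Of the Dnmt3a(+/-) tumors, 3 were below all controls and replicate 4 was the highest of the 7. The log2 fold change was -0.71 (SE 0.54, adjusted p = 0.657, edgeR), -1.26 without replicate 4 and -0.37 without replicate 2. The summed level of 7 erythroid genes was 382 CPM in replicate 4 and 182 CPM in replicate 2 against 20.9 to 44.5 CPM in the other 5 tumors, so the tumors with the highest and the lowest *Car1* both had more erythroid RNA. The part of blood in the *Car1* level was not tested. *Car1* and *Car4* had r = -0.336 and rho = -0.393 (exact permutation p = 0.468 and 0.396, adjusted p = 0.702 and 0.666; r = -0.591 without Dnmt3a(+/-) replicates 1 and 2).

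The ENaC subunits did not share 1 pattern. *Scnn1a* (chr6:125320659-125344943, plus strand), the subunit that the channel cannot conduct without, was at 118, 83.0 and 85.4 CPM in the controls and 113, 29.3, 56.9 and 43.7 CPM with Dnmt3a(+/-) BM. Here Dnmt3a(+/+) replicate 3 was near its group, and Dnmt3a(+/-) replicates 2 to 4 were below all controls while replicate 1 was above 2 of them. edgeR gave -0.65 (SE 0.42, adjusted p = 0.596), with -1.13 without Dnmt3a(+/-) replicate 1 and -0.41 without Dnmt3a(+/-) replicate 2. *Scnn1b* (chr7:121865038-121918514, plus strand) measured 8.5, 10.5 and 3.89 CPM in the controls and 5.71, 7.99, 12.9 and 5.24 CPM in the Dnmt3a(+/-) tumors, with the lowest tumor a control and the highest a Dnmt3a(+/-) tumor and the rest mixed. Its log2 fold change was 0.06 (SE 0.45, 95% interval -0.97 to 1.10, adjusted p = 0.976, edgeR), and its sign turned without Dnmt3a(+/-) replicate 3 (-0.27). *Scnn1b* overlaps *Cog7* on the opposite strand, whose level summed to 228 CPM over the 7 tumors, and the strand setting of the counting is not given in the sources used here. *Scnn1g* (chr7:121734479-121768475, plus strand) was at 9.73, 14.8 and 3.40 CPM in the controls and 6.14, 1.83, 9.77 and 2.62 CPM with Dnmt3a(+/-) BM, with 1 control among the low tumors and 1 Dnmt3a(+/-) tumor among the high ones. Its log2 fold change was -0.87 (SE 0.68, adjusted p = 0.661, edgeR). It was -0.37 without Dnmt3a(+/+) replicate 2, -1.26 without Dnmt3a(+/+) replicate 3, -0.56 without Dnmt3a(+/-) replicate 2 and -1.40 without Dnmt3a(+/-) replicate 3. The latter subunits had r = 0.612 and rho = 0.714 (exact permutation p = 0.139 and 0.0881, adjusted p = 0.372 and 0.264; r = 0.562 without Dnmt3a(+/+) replicate 3 and Dnmt3a(+/-) replicate 3).

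Of the secretory pair, *Cftr* (chr6:18170687-18322768, plus strand) encodes the anion channel that opens when cAMP rises and is mutated in cystic fibrosis. Its levels were 36.2, 56.8 and 14.7 CPM in the controls and 26.7, 11.6, 22.5 and 13.5 CPM with Dnmt3a(+/-) BM. The 2 highest tumors were the BMT18 controls, and the BMT8 control lay among the Dnmt3a(+/-) tumors. edgeR gave -0.95 (SE 0.47, 95% interval -2.04 to 0.14, unadjusted p = 0.0789, adjusted p = 0.498). Without Dnmt3a(+/+) replicate 2 it was -0.46, and without replicate 3 it was -1.32 (unadjusted p = 0.0114, adjusted p = 0.366, edgeR). *Slc12a2* (chr18:57878678-57946821, plus strand) encodes NKCC1, the cotransporter of sodium, potassium and chloride that fills the crypt cell with chloride. It was the steadiest member, at 203, 327 and 258 CPM in the controls and 224, 256, 301 and 278 CPM with Dnmt3a(+/-) BM, so that the lowest and the highest tumor were both controls. Its log2 fold change was 0.01 (SE 0.20, 95% interval -0.46 to 0.48, adjusted p = 0.991, edgeR). The pair did not track each other (r = 0.087, rho = 0.071, exact permutation p = 0.856 and 0.906, adjusted p = 0.856 and 0.906; r = -0.703 without Dnmt3a(+/+) replicate 2 and Dnmt3a(+/-) replicate 2), and neither did *Slc26a3* and *Slc12a2* (r = 0.093, rho = 0.179, exact permutation p = 0.822 and 0.713, adjusted p = 0.856 and 0.856; r = -0.352 without Dnmt3a(+/+) replicates 2 and 3).

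**Figure D2:**
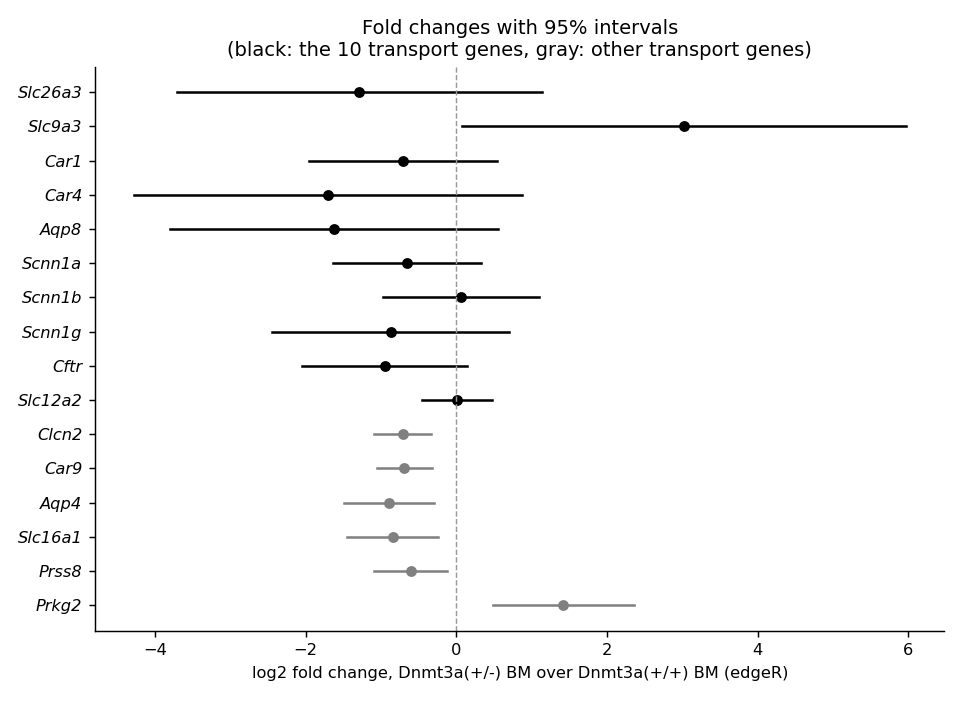
log2 fold change of Dnmt3a(+/-) BM over Dnmt3a(+/+) BM tumors (edgeR, 3 against 4 tumors) with its 95% interval, for the 10 members in black and 6 other transport genes, named for their low p, in gray. Of the members, the interval of *Slc9a3* alone leaves out 0 (0.08 to 5.97), and that of *Slc12a2* is the narrowest.

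Counted over the members, 10 of 10 had enough counts to be tested and 0 were called (adjusted p below 0.05 with a log2 fold change beyond 1 either way), as were 0 of the 15810 genes (0.0%) in edgeR's test, whose lowest adjusted p was 0.361. At an unadjusted p under 0.05 edgeR had 1 member, *Slc9a3*, where 11.0% of all genes passed. DESeq2 called 0 members beside 1.24% of the genes it tested. For 0 of the 10 did the groups not overlap, against 12.4% of all genes. Both counts lie at or under the share found over all genes. The lowest level of 5 absorptive members was in Dnmt3a(+/+) replicate 3 and that of 4 members, 3 of them absorptive, was in Dnmt3a(+/-) replicate 2, which were the lowest tumors for 19.7% and 25.3% of all genes.

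The absorptive and secretory sets were then compared within each tumor. The mean log2 CPM of the 8 absorptive genes minus that of the 2 secretory genes was -0.92, -1.52 and -3.25 in the controls and -1.83, -1.17, -1.41 and -2.40 with Dnmt3a(+/-) BM. The group means were -1.89 ± 1.21 (SD, n = 3) and -1.70 ± 0.54 (SD, n = 4). Both the smallest and the largest gap were thus in controls. The difference between the groups was 0.19, less than the SD of either, and it turned to -0.49 without Dnmt3a(+/+) replicate 3 and was 0.01 without Dnmt3a(+/-) replicate 2. The absorptive mean varied more than the secretory one, from 2.7 to 5.58 log2 CPM over the 7 tumors against 5.77 to 7.09.

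**Figure D3:**
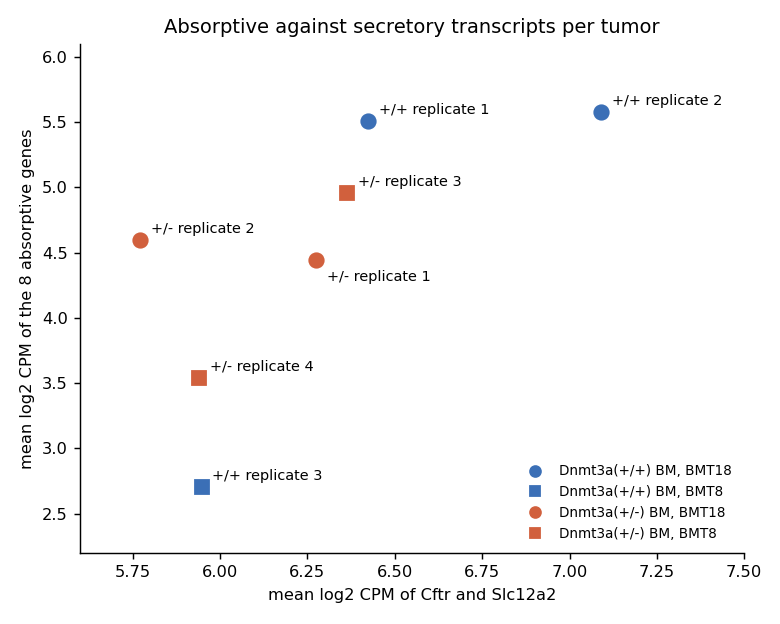
Mean log2 CPM of the 8 absorptive genes (vertical) against that of *Cftr* and *Slc12a2* (horizontal), 1 point per tumor, with Dnmt3a(+/+) BM in blue and Dnmt3a(+/-) BM in orange, BMT18 as circles and BMT8 as squares. The BMT18 controls lie highest at 5.51 and 5.58, the BMT8 control lowest at 2.7, and the 4 Dnmt3a(+/-) tumors between, from 3.54 to 4.96.

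The order of the groups depended on the experiment. In BMT18, with 2 tumors a group, 7 of the 10 members (*Slc26a3*, *Car1*, *Car4*, *Aqp8*, *Scnn1b*, *Scnn1g* and *Cftr*) were lower in both Dnmt3a(+/-) tumors than in both controls, as were 26.2% of all genes, and *Slc9a3* was higher in both, as were 23.5%. edgeR on BMT18 alone passed 5 members at an unadjusted p under 0.05, where 9.46% of all genes passed, and called 0. These were *Slc26a3* (log2 fold change -2.08, unadjusted p = 0.00175), *Car4* (-1.89, 0.0117), *Slc9a3* (3.28, 0.0272), *Aqp8* (-1.82, 0.0286) and *Car1* (-1.54, 0.0327), each with edgeR's adjusted p = 0.492. In BMT8, with a single control, 6 members (*Slc26a3*, *Slc9a3*, *Car4*, *Aqp8*, *Scnn1b* and *Slc12a2*) were higher in both Dnmt3a(+/-) tumors, as were 36.5% of all genes. *Scnn1a* was lower in both, as were 35.5%. Lower in BMT18 and higher in BMT8 were 4 members, *Slc26a3*, *Car4*, *Aqp8* and *Scnn1b*, and 5.52% of all genes. On the log2 CPM scale *Slc26a3* differed by -2.13 in BMT18 and 3.99 in BMT8. The corresponding differences were -2.01 and 1.93 for *Car4*, -1.98 and 1.52 for *Aqp8* and -0.48 and 1.07 for *Scnn1b*. The interaction of experiment and graft in edgeR, added after the values were seen, had an unadjusted p of 0.00199 for *Slc26a3*, 0.029 for *Aqp8*, 0.0351 for *Car4* and 0.0842 for *Scnn1b*. After adjustment all were 1.0, and 4.62% of all genes passed at an unadjusted p under 0.05. Every BMT8 value rests on Dnmt3a(+/+) replicate 3, so the experiment and that tumor cannot be told apart. In that tumor the smooth muscle markers were near 0 while the summed epithelial level was the highest of the 7 (34140 CPM). *Krt8* (14680 CPM) and *Krt19* (8739 CPM) made up most of that sum. All listed epithelial markers but *Cdh1* and *Esrp1* were highest in that tumor. The part of smooth muscle and epithelium in the low absorptive levels was not tested.

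**Figure D4:**
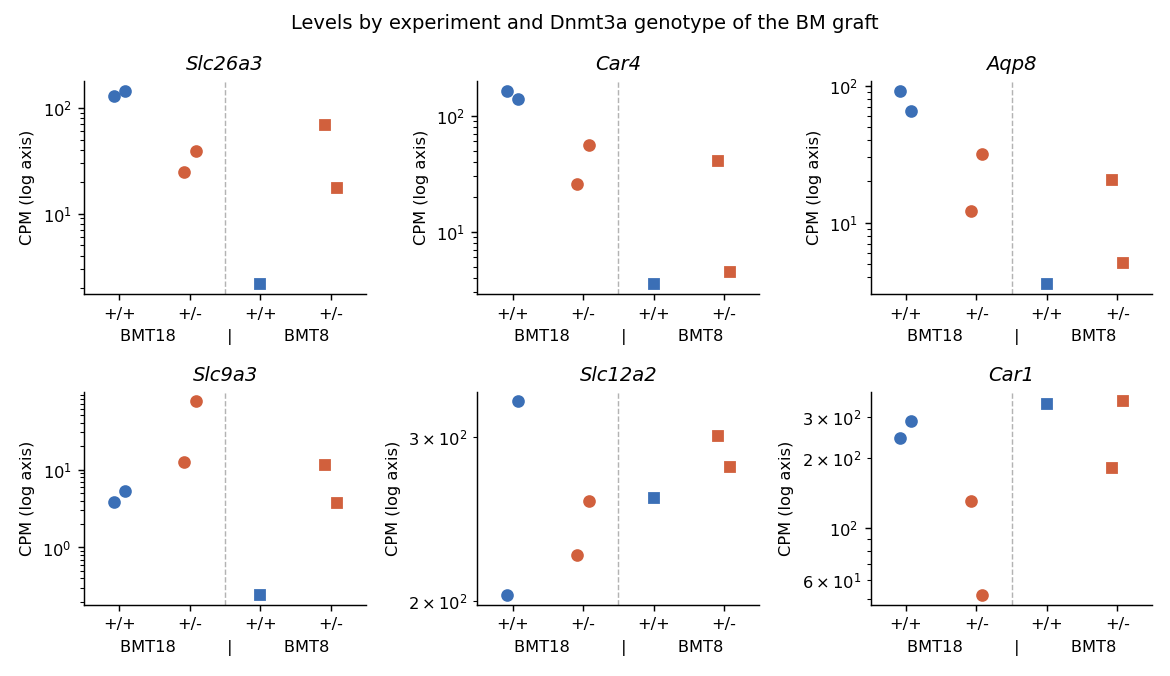
Levels of 6 members in CPM (log axes, with a scale of its own for each gene) by experiment and by the *Dnmt3a* genotype of the graft, 1 point per tumor. In BMT18 (circles, left) *Slc26a3*, *Car4* and *Aqp8* are higher with +/+ grafts and in BMT8 (squares, right) they are higher with +/- grafts, where the single +/+ tumor has 2.14, 3.52 and 3.55 CPM; *Slc9a3* is higher with +/- grafts in both.

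The members were set beside cell type markers of the same tumors, since in whole tumors fewer cells of a type and less RNA per cell cannot be told apart. The marker lists were also chosen with earlier results of these data known. All 11 epithelial markers had a log2 fold change below 0, with a median of -0.48, and their sum was 16810 to 34140 CPM in the controls and 10480 to 22060 CPM with Dnmt3a(+/-) BM. Of 8 mature colonocyte markers, 7 were below 0 (median -0.80) and 4 were lower in all Dnmt3a(+/-) tumors than in all controls, against 6.32% of all genes. Their summed level was 15060 to 18850 CPM in the controls and 3807 to 10800 CPM with Dnmt3a(+/-) BM. *Lypd8* carried most of that sum. The other 7 markers summed to 4796, 2942 and 3022 CPM in Dnmt3a(+/+) replicates 1 to 3 and 949 to 3818 CPM with Dnmt3a(+/-) BM. On these the control low in *Slc26a3*, *Car4* and *Aqp8*, replicate 3, was close to replicate 2 and below 1 Dnmt3a(+/-) tumor. That overlap leans on *Emp1*, at 2505, 1022 and 752 CPM in the controls and 2146, 117, 668 and 441 CPM in Dnmt3a(+/-) replicates 1 to 4. A sum without *Emp1* as well was not made. All 7 goblet markers were below 0 (median -0.91), and all 6 stem and cycling markers were above 0 (median 0.63). Of the cells outside the epithelium, endothelial markers had a median of 1.72 (5 of 5 above 0), fibroblast markers 1.39 (7 of 7; 0.20 without Dnmt3a(+/-) replicate 2), leukocyte markers 0.26 (4 of 5) and smooth muscle markers 0.004 (3 of 6), and the 5 erythroid markers tested had 2.78 (5 of 5). The 5 distal colon *Hox* genes had a median of -0.45. When the counts were scaled to the epithelial markers, the median of all genes was 0.61, the absorptive median went from -0.79 to -0.36 and the secretory median from -0.47 to 0.09. That scaling uses the summed marker counts, to which *Krt8* and *Krt19* gave the most in every tumor. The part of cell makeup in the members' levels was not tested.

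Beyond the members, 45 other genes of colonic transport were listed, with earlier results of these data known, and 44 were tested. At an unadjusted p under 0.05, 7 were lower with Dnmt3a(+/-) BM (15.9%, against 5.2% of all genes), 1 was higher (5.83% of all genes), and edgeR called 0. The median was -0.48, with 35 of 44 below 0. By function, 1 of 16 genes of salt and bicarbonate exchange were lower at that threshold, as were 2 of 8 of the sodium pump and the control of ENaC, 2 of 14 of anion secretion and its control, and 2 of 6 of water and short-chain fatty acid transport. Of these 44, 6 were lower in all Dnmt3a(+/-) tumors than in all controls (6.32% of all genes) and 1 was higher (6.12%). Scaling changed the count: on total counts alone 3 of the 44 passed in either direction, and scaled to the epithelial markers 1 did. The median of all genes moved to 0.213 and 0.605 under these scalings, and the share of all genes passing under them was not counted.

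*Clcn2*, a basolateral chloride channel of surface colonocytes, was at 95, 105 and 73.4 CPM in the controls and 54.4, 57.4, 61.6 and 49.3 CPM with Dnmt3a(+/-) BM. No Dnmt3a(+/-) tumor reached the lowest control (log2 fold change -0.71, SE 0.16, unadjusted p = 0.00251, adjusted p = 0.361, edgeR). *Car9*, a membrane carbonic anhydrase, likewise did not overlap, with 56.0 to 75.5 CPM in the controls and 37.4 to 48.0 CPM with Dnmt3a(+/-) BM (-0.69). So it was for *Aqp4*, a basolateral water channel, with 87.2 to 118 against 40.3 to 74.2 CPM (-0.89), and for *Prss8*, the protease that activates ENaC, with 26.2 to 34.3 against 15 to 24.2 CPM (-0.60). *Slc16a1*, a carrier of butyrate and lactate, had 132 to 251 against 91.0 to 145 CPM, which overlap (-0.84). The 1 gene that was higher, *Prkg2*, encodes the cGMP-dependent kinase that acts on *Cftr* downstream of guanylin. It was at 24.4, 14.8 and 24.9 CPM in the controls and 32.1, 39.0, 64.8 and 93.1 CPM with Dnmt3a(+/-) BM, with no overlap (log2 fold change 1.42, SE 0.40, adjusted p = 0.373 by edgeR and 0.0352 by DESeq2). Each of these 6 genes, named for their low p, differed in the same direction in both experiments. For all but *Slc16a1* this follows from groups that do not overlap. *Slc16a1* differed by -1.08 in BMT18 and -0.24 in BMT8 on the log2 CPM scale.

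Genes whose log2 levels over the 7 tumors were most like those of *Slc26a3* were *Cpq* (Pearson r = 0.984), *Insl5* (0.976), *Hao2* (0.974), *Akr1c14* (0.974) and *Ttc33* (0.969), out of 11064 genes with a mean of at least 5 CPM. *Insl5*, a hormone of colonic endocrine cells, had 17.3, 18.6 and 1.53 CPM in the controls and 6.94, 11.7, 13.1 and 3.65 CPM with Dnmt3a(+/-) BM, so the BMT8 control was lowest here too. Of the members, *Car4* ranked 102 and *Aqp8* 107 in likeness to *Slc26a3*, *Scnn1b* 194, *Cftr* 1177 and *Slc12a2* 4641. For *Slc12a2* the most alike were *Atp10b* (0.966), *Mtif2* (0.954), *Usp49* (0.951), *Tox* (0.950) and *Fgfr4* (0.942), and the member most like it, *Scnn1b*, ranked 1910. These coefficients are a description, since the points share 7 libraries.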

How the data were processed

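Whole-tumor polyadenylated RNA of 7 mice was sequenced from a directional library kit. Per the labels and the study's methods, the authors trimmed reads with Trimmomatic, aligned them with STAR to mouse build mm10 and estimated counts per gene with RSEM. The deposited table holds these estimated counts as whole numbers, without normalization, 1 column per tumor. The strand setting is not given in the sources used here. Total counts ranged from 38472738 to 64314999, and genes without a symbol held 0.104% of them. No 2 tumors were duplicates. The labels call the tumors biological replicates.

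The comparison of the groups ran in edgeR 4.0.16 (R 4.3.3; TMM, filterByExpr, quasi-likelihood test, two-sided, Benjamini-Hochberg over 15810 genes, no covariate), and calls needed an adjusted p below 0.05 with a log2 fold change beyond 1 either way. Log2 CPM used a prior count of 2, and exact permutation tests ran over the 35 splits of the tumors. Other settings tried were a robust fit, DESeq2 1.42.0, further filters and scalings, covariates, BMT18 alone and each tumor left out. The interaction of experiment and graft, the values of marker lists and of the absorptive minus secretory gap without a tumor, and the mature colonocyte sum without *Lypd8* were added after seeing the data. The fits were tested on simulated data that held 200 true differences, each 4-fold or 8-fold. Smaller differences, such as those estimated for most members, were not simulated. With a dispersion per gene, as edgeR estimated it from these tumors, edgeR found 143 of the 200 and made 7 false calls. DESeq2 found 180 and made 76 false calls. At a dispersion of 0.05 both found all 200, with 5 false calls by edgeR and 3 by DESeq2. Symbols and gene positions are those of GENCODE M21. The members and lists were chosen with earlier results of these data known. Named besides the members were, of the other transport genes, up to 5 with the lowest unadjusted p under 0.05 in each direction, and the 5 genes most like *Slc26a3* and *Slc12a2*; *Insl5* was singled out among these, and the *Hox* genes named, after their values were seen.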

Additional observations from a re-analysis of the deposited data

Results flagged for a closer look

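*Slc9a3* at 74.7 CPM in Dnmt3a(+/-) replicate 2 lay farther above the other 3 tumors of its group than chance gives in about 1 group in 20. The summed fibroblast markers in the same tumor, 1017 CPM, did likewise. Of 26 values examined in this way 2 stood out, where about 1.3 would by chance.

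For 4 of 16 genes examined, all Dnmt3a(+/-) tumors were lower than the controls in BMT18 and higher in BMT8, as were 5.52% of all genes. The difference of the experiments in log2 CPM (BMT8 minus BMT18) was 6.12 for *Slc26a3*, 3.94 for *Car4*, 3.5 for *Aqp8* and 1.55 for *Scnn1b*. BMT8 has 1 control, and edgeR's interaction test gave an adjusted p of 1.0 for each.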

How the results depend on the processing

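Each of the 7 tumors left out in turn kept edgeR's count of called members at 0. At an unadjusted p under 0.05, edgeR had 0 to 4 members in these fits (1 with all tumors; 0 without Dnmt3a(+/+) replicate 1, Dnmt3a(+/+) replicate 2 or Dnmt3a(+/-) replicate 2, and 4 without Dnmt3a(+/+) replicate 3) and 4 to 14 other transport genes (8 with all tumors; 4 without Dnmt3a(+/+) replicate 2, 14 without replicate 3). The share of all genes passing in each of these edgeR fits was not counted, so these counts are not read as particular to transport genes. The absorptive median ran from -1.06 to -0.48 and the secretory one from -0.66 to -0.13. DESeq2, added after the data were seen, called 0 to 2 members in these fits: *Slc26a3* (adjusted p = 0.0287) and *Aqp8* (0.0285) without Dnmt3a(+/+) replicate 3, *Scnn1a* (0.0235) without Dnmt3a(+/-) replicate 1 and *Slc9a3* (0.0273) without Dnmt3a(+/-) replicate 4, fits in which it called 1.87%, 2.9% and 1.11% of all genes. On simulated data with a dispersion per gene, DESeq2 made 76 false calls beside 180 true ones, a limit on its calls here. In edgeR *Slc12a2* ranged from -0.15 to 0.20 and *Scnn1b* from -0.27 to 0.36. No other member changed sign.

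With the experiment as a covariate 2 members passed at an unadjusted p under 0.05 (14.7% of all genes) and *Slc12a2* was at -0.02. In BMT18 alone 5 passed (9.46%), *Scnn1b* was at -0.45 and *Slc12a2* at -0.13. Scaling to total counts left 3 other transport genes and moved the median of all genes to 0.21; scaling to the epithelial markers left 1, with medians of -0.36 for the absorptive and 0.088 for the secretory set and 0.61 for all genes. Under either scaling the share of all genes passing was not counted. The median *Slc12a2* level per length was 39.5 on its longest transcript. The replicate block over replicates 1 to 3 passed 2 members and called 0, and the share of all genes passing in it was not counted. Same-numbered tumors deviated from their groups with correlations of 0.57, 0.07 and -0.04, so the numbers were not taken as pairs. The cause of these changes was not tested. The lowest member count was 8, for *Slc9a3* in Dnmt3a(+/+) replicate 3.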
